A study of Homo sapiens with 10 samples.

Results

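The genes described here encode the initiation and elongation factors of protein synthesis, their direct modifiers and related genes named with them. They were taken from the deposited count table as the genes whose symbol starts with EIF or EEF and a number. Of 233 such rows, 155 pseudogenes, 3 antisense genes, 4 divergent transcripts and 1 chromosome Y gene were left out, which gave 70 members among 63187 genes. The study sequenced RNA of the human osteosarcoma cell line U2OS from 3 groups with 2 libraries each. The first group was heat-shocked and had a knockdown of YTHDC1, a nuclear protein that binds the RNA modification m6A. The second was heat-shocked with a control reagent and the third carried the control reagent without heat shock. All of them were grown in DMEM with fetal bovine serum, with the same growth temperature on every label, and both control groups received the control reagent. The sample titles write sh for the reagents and the descriptions write si, so the kind of knockdown is uncertain. The titles also write total RNA-seq where the count columns write mRNA, so whether messenger RNA was selected is uncertain. How hot and how long the cells were heated is not given in the sources used here. Below, the groups are called the knockdown, the heated controls and the unheated controls. No unheated knockdown was analysed here, so the knockdown comparison holds for heated cells only.

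Initiation factors load the initiator tRNA and the small ribosomal subunit onto the capped messenger RNA, scan for the start codon and join the large subunit, and elongation factors then deliver tRNAs and move the ribosome along. Cells under stress commonly slow initiation by phosphorylating the alpha subunit of eIF2 through one of a few kinases, or by freeing proteins that hold the cap-binding factor eIF4E. Many messenger RNAs of the translation machinery begin with a C and a run of pyrimidines, the terminal oligopyrimidine tract, through which growth signals set their translation. RNA levels, the only readout analysed here, do not show phosphorylation or translation.

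RefSeq promoter windows on GRCh38.p14, from 250 bases before to 50 after the annotated start, were found for 56 of the 70 members, as 73 windows. A C at the first transcribed base followed by at least 4 further pyrimidines was present in 13 of the 73 windows (17.8%), against 4.07% of all 35116 windows in that table. The sequences of 6 such members follow because they show the tract shared by the most abundant factors and by members that went opposite ways in the knockdown. Each line gives 15 bases before the annotated start and 15 from it, 5′ to 3′ on the gene's strand, with the tract in capitals.

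EEF1A1, minus strand, chr6:73521018-73521047: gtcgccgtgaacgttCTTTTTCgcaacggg

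EEF2, minus strand, chr19:3985449-3985478: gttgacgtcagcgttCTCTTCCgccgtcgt

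EEF1B2, plus strand, chr2:206159880-206159909: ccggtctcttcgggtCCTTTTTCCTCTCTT

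EIF3F, plus strand, chr11:7987322-7987351: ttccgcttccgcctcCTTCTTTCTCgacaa

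EIF4A2, plus strand, chr3:186783562-186783591: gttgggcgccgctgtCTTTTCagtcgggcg

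EIF4B, plus strand, chr12:53006441-53006470: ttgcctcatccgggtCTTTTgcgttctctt

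The motif GAANNTTC or TTCNNGAA, which is 2 facing units of the heat shock element and reads the same on both strands, was searched for in the same windows. It was present in 7 of the 73 member windows (9.59%) and in 13.5% of all windows, and 3 alternating units were found in 0 of the 73 member windows and in 0.49% of all windows. The element TGATGCAA or its reverse complement TTGCATCA, associated with the stress factor ATF4, was found in 0 of the 73 member windows and in 0.866% of all windows. Of the 7 members with the motif, 5 were called higher in heat shock (edgeR adjusted p under 0.05) and 1, EIF5B, was called lower. EEF1A1 was not called. The calls of EEF1B2, EIF3F and EIF5B among them were each lost in some fits that left out a library. Among all tested genes 20.6% were called higher and 23.3% lower. Whether the motif had a part in these changes was not tested. The motif is printed next for 2 members that rose in heat shock, with its letters in capitals. The one in EIF5 starts at position 12 of the transcript and the one in EIF4A2 at position -69.

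EIF5, plus strand, chr14:103334237-103334266: agtcagagcgaGAACATTCcagaggtgagt

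EIF4A2, plus strand, chr3:186783497-186783526: aagcacggcgaGAAAATTCctccgcaagaa

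Library totals ran from 13252370 to 15500743 counts, and the 70 members took between 2.09% and 2.35% of them. YTHDC1 stood at 121 and 118 CPM in the knockdown, 268 and 258 CPM in the heated controls and 213 and 225 CPM in the unheated controls, where CPM scales each count by library size with the TMM factor. The heat shock chaperone gene HSPA1A stood at 5403 and 5127 CPM in the knockdown, 4479 and 4801 CPM in the heated controls, and 52.5 and 49.5 CPM in the unheated controls. Of 10 osteogenic or mesenchymal markers, 9 reached 1 CPM, with SP7 below it, and their summed level was 5602 to 6457 CPM in the knockdown, 5644 to 5761 CPM in the heated controls and 5632 to 5776 CPM in the unheated controls. The summed level of 5 epithelial markers was 36.4 to 38.5 CPM in the knockdown, 9.96 to 11.1 CPM in the heated controls and 12.6 to 12.9 CPM in the unheated controls, with KRT19 below 1 CPM on average. The summed level of 3 endothelial markers was 5.21 to 5.36 CPM in the knockdown, 3.08 to 3.38 CPM in the heated controls and 4.18 to 4.60 CPM in the unheated controls, with PECAM1 and CDH5 below 1 CPM. For 2 neural markers it was at most 0.209 CPM in the knockdown, 0.358 CPM in the heated controls and 0.378 CPM in the unheated controls, with SOX10 at 0. Their part in the results was not tested. Bulk RNA cannot tell fewer cells with a transcript apart from less of it per cell.

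Of the 70 members, 64 had enough counts to be tested. Elongation factors were the most abundant. EEF1A1, which delivers tRNAs to the ribosome, averaged 2194 TPM over the 6 libraries, where TPM divides counts by the deposited gene length before scaling to the library. The median over the 9 elongation factors was 359 TPM, against 135 TPM over the 14 eIF3 subunits, 72.1 TPM over the scanning and joining factors and 48.5 TPM over the 4 eIF2 alpha kinases. The first 2 medians include EEF1G, listed at 0 TPM, and EIF3C and EIF3CL, whose levels could not be measured reliably here. The scarcest list was that of 7 elongation factor regulators, with a median of 6.81 TPM and a highest value of 19.8 TPM for EEF2KMT. It holds a kinase, methyltransferases and EEF1E1, a protein of the tRNA synthetase complex. The deposited lengths pool all exons of a gene and reach 37761 bases for EIF3E, so TPM understates genes with many annotated exons.

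**Figure D1:**
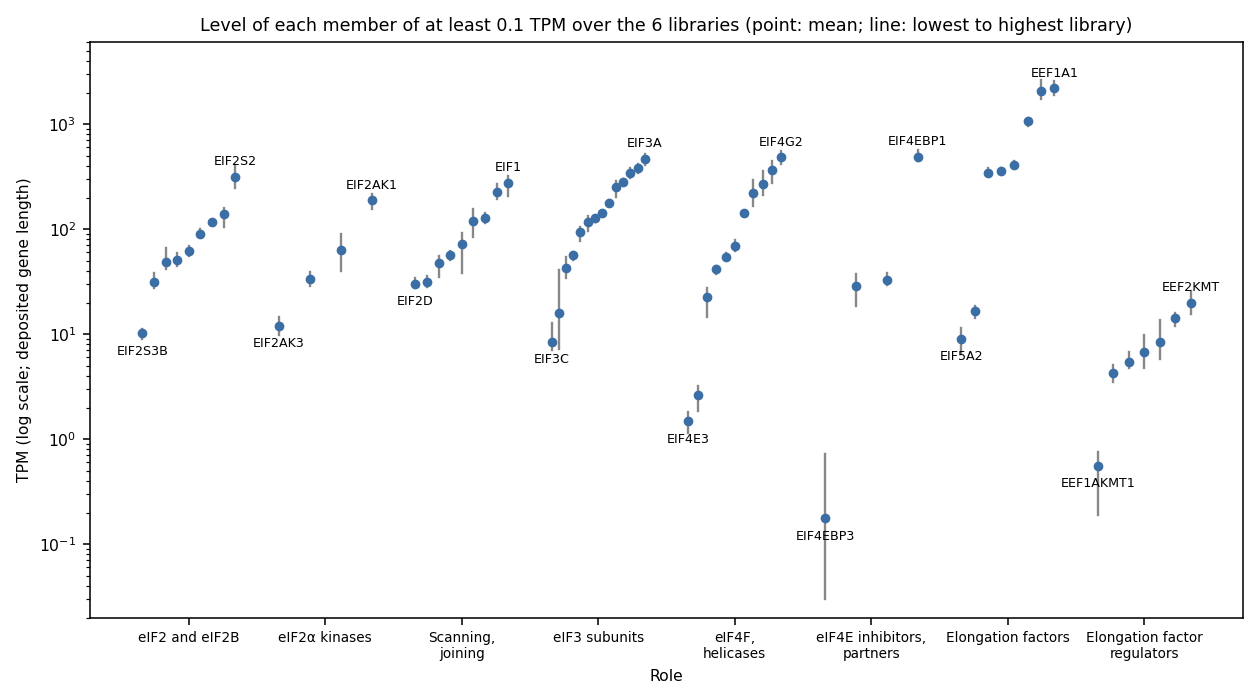
Level of every member that averaged at least 0.1 TPM, by role, on a log axis, with the mean over 6 libraries as a point and the range from lowest to highest library as a line. The mean levels of the elongation factors reach 2194 TPM, and those of the elongation factor regulators stay at or under 19.8 TPM.

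Heat shock raised 19 and lowered 13 of the 64 tested members in control cells, by edgeR's quasi-likelihood test with a Benjamini-Hochberg adjusted p under 0.05 over 17290 genes. That is 50% of the members, beside 43.9% of all tested genes, with 20.6% of all genes called higher and 23.3% called lower. Only EIF1AD and EIF2AK2 were both called and changed at least 2-fold, 2 of 64 members against 9.32% of all genes. The median size of the log2 fold change was 0.16 among members and 0.28 among all genes. The 2 groups' libraries did not overlap for 48 of 64 members, and for 72.2% of all genes. The number of lowered members depended on the libraries: it was 7 without heated control replicate 2, 8 without unheated control replicate 1 and 6 without unheated control replicate 2. It was 5 with DESeq2's Wald test and 20 with scaling by library size alone. Under the main scaling 59.4% of the called members were higher, against 42.9% with library size alone and 78.3% with DESeq2's test.

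The knockdown raised 19 and lowered 21 of the 64 members relative to the heated controls. This was 62.5% of them, beside 54.5% of all genes, with 27.4% called higher and 27.2% lower. Called changes of at least 2-fold numbered 0 of 64 members with edgeR and with DESeq2, against 12.7% of all genes, and log2 fold changes ran from -0.85 to 0.93. Without knockdown replicate 1 there was 1 such change. Groups did not overlap for 51 members, and for 75.9% of all genes. Set against the unheated controls, the knockdown was higher in 26 and lower in 18 members, 68.8% of them beside 62.2% of all genes (31.1% higher and 31.1% lower), and the groups did not overlap for 56 members and for 80.1% of all genes. The 3 comparisons share groups, so their values are not independent and are given side by side.

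**Figure D2:**
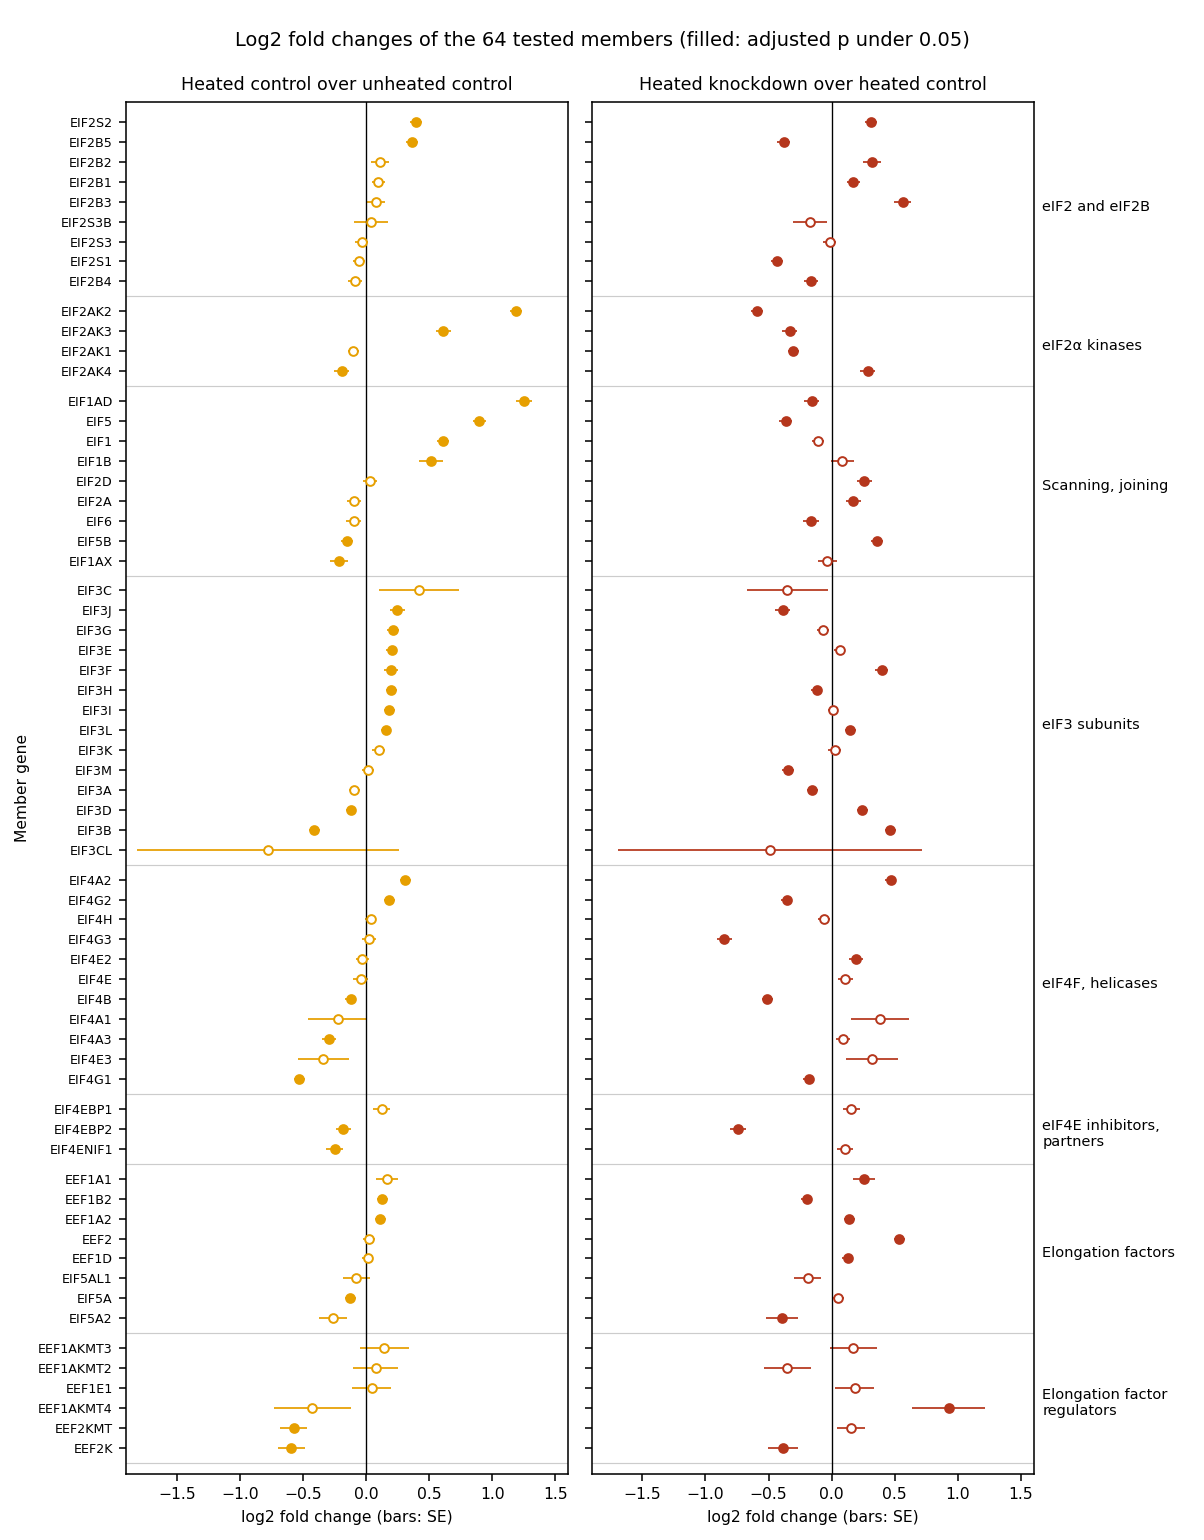
Log2 fold change of each of the 64 tested members by role, for the heated over the unheated controls on the left and the knockdown over the heated controls on the right, with bars for the standard error and filled points for an edgeR adjusted p under 0.05. Heat shock points reach 1.25 for EIF1AD, and no knockdown point passes 1 in size.

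The heat shock and knockdown comparisons share the heated controls, so a member's 2 values are not independent. EEF1A2, EIF2S2, EIF3F, EIF3L and EIF4A2 were called higher in each of them, and EEF2K, EIF4B, EIF4EBP2 and EIF4G1 were called lower in each. Under some alternatives EEF1A2, EIF3F, EIF3L, EIF4B and EIF4EBP2 lost the heat shock call, and EEF1A2 and EEF2K the knockdown call. EIF2S2, EIF4A2 and EIF4G1 kept both. EIF1AD, EIF2AK2, EIF2AK3 and EIF5 were higher in heat shock, lower in the knockdown than in the heated controls, and above the unheated controls in the knockdown. EEF1B2, EIF2B5, EIF3H, EIF3J and EIF4G2 were also higher in heat shock and lower in the knockdown than in the heated controls. EIF3D and EIF5B were lower in heat shock and higher in the knockdown than in either control group. Under some alternatives EEF1B2, EIF3D and EIF5B lost the heat shock call and EIF1AD and EIF3H the knockdown call. EIF3D also lost the call against the unheated controls with library size alone, and without unheated control replicate 1 or 2. EIF3B and EIF2AK4 were likewise lower in heat shock and higher in the knockdown than in the heated controls. In the knockdown neither was called different from the unheated controls, although EIF2AK4 was without knockdown replicate 2 (log2 fold change 0.18, edgeR adjusted p = 0.00283). EIF4E, which binds the cap, EIF4H, a helper of the helicase, and EIF2S3, the tRNA-binding subunit of eIF2, were called in none of the 3 comparisons. An adjusted p above 0.05 does not show that their levels were equal.

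The eIF2 complex carries the initiator tRNA, and eIF2B reloads it with GTP after each round. In heat shock 2 of these 9 genes rose and 0 fell by edgeR, with 0 falls also at an unadjusted p under 0.05 and by DESeq2. With library size alone as the scaling, EIF2B4 (log2 fold change -0.16, edgeR adjusted p = 0.018) and EIF2S1 (-0.13, edgeR adjusted p = 0.025) were called lower in heat shock. In the knockdown 4 rose and 3 fell, and the 3 eIF2 subunits went different ways. The called shares were 22.2% in heat shock and 77.8% in the knockdown, beside 43.9% and 54.5% of all tested genes. EIF2S2, the beta subunit (ENSG00000125977, chromosome 20, 34088309 to 34112243 on GRCh38.p14), stood at 287 and 273 CPM in the knockdown, 233 and 217 CPM in the heated controls, and 173 and 170 CPM in the unheated controls. No 2 of these groups overlapped, and the gene rose in heat shock (log2 fold change 0.40 ± 0.05 SE, edgeR adjusted p = 3.66e-07) and again in the knockdown (0.31 ± 0.05, 5.05e-06). EIF2S1, the alpha subunit that stress kinases phosphorylate, stood at 171 and 158 CPM in the knockdown, 219 and 225 CPM in the heated controls, and 231 and 232 CPM in the unheated controls. Both knockdown libraries lay below every control library, and the fall was to 74.1% of the heated controls (log2 fold change -0.43 ± 0.05 SE, edgeR adjusted p = 5.02e-08). EIF2S3, the gamma subunit, was between 127 and 137 CPM in all 6 libraries and was not called in any comparison.

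Of the 5 eIF2B subunit genes, EIF2B1, EIF2B2 and EIF2B3 rose and EIF2B4 and EIF2B5 fell in the knockdown. EIF2B3, the gamma subunit (ENSG00000070785, chromosome 1, 44850522 to 44986595), stood at 62.1 and 58.6 CPM in the knockdown, 41.0 and 40.6 CPM in the heated controls, and 39.0 and 38.2 CPM in the unheated controls. The knockdown libraries stood apart from both control groups, 1.48-fold above the heated controls (log2 fold change 0.56 ± 0.07 SE, edgeR adjusted p = 1.16e-07). EIF2B5, the catalytic subunit, stood at 93.0 and 90.7 CPM in the knockdown, 120 and 119 CPM in the heated controls, and 93.3 and 92.4 CPM in the unheated controls. It rose by 0.36 on the log2 scale in heat shock (edgeR adjusted p = 2.24e-06) and fell by 0.38 in the knockdown (edgeR adjusted p = 8.92e-07), where its libraries overlapped those of the unheated controls. The smaller calls of EIF2B1 (log2 fold change 0.17) and EIF2B4 (-0.16) in the knockdown were lost with DESeq2 (adjusted p = 0.0703 and 0.0823). EIF2B1 also lost it without heated control replicate 1 (edgeR adjusted p = 0.0704) and EIF2B4 without heated control replicate 2 (edgeR adjusted p = 0.123).

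The 4 kinases of eIF2 alpha answer different stresses. In heat shock 2 rose and 1 fell, and in the knockdown all 4 were called, 1 higher and 3 lower. That is 75% and 100% of these 4, beside 43.9% and 54.5% of all tested genes. EIF2AK2, the kinase PKR that senses double-stranded RNA (ENSG00000055332, chromosome 2, 37099210 to 37156980), had 191 and 178 CPM in the knockdown, 283 and 274 CPM in the heated controls, and 120 and 124 CPM in the unheated controls. The 3 groups did not overlap. Heat shock raised it 2.28-fold (log2 fold change 1.19 ± 0.05 SE, edgeR adjusted p = 6.52e-16), and the knockdown held 66.3% of the heated control level (log2 fold change -0.59 ± 0.05 SE, edgeR adjusted p = 1.76e-10). EIF2AK3, the kinase PERK of the endoplasmic reticulum, had 64.3 and 70.1 CPM in the knockdown, 84.3 and 84.9 CPM in the heated controls, and 56.3 and 54.5 CPM in the unheated controls. It moved the same ways by less, with log2 fold changes of 0.61 in heat shock (edgeR adjusted p = 9.51e-09) and -0.33 in the knockdown (edgeR adjusted p = 4.06e-05).

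EIF2AK1, the heme-regulated kinase and per length the most abundant of the 4 at 189 TPM, stood at 243 and 244 CPM in the knockdown, 301 and 300 CPM in the heated controls, and 330 and 315 CPM in the unheated controls. It fell in the knockdown (log2 fold change -0.30 ± 0.04 SE, edgeR adjusted p = 3.29e-06) and was not called in heat shock (-0.10, edgeR adjusted p = 0.064). Without knockdown replicate 1 or 2 in the shared fit that heat shock value was called (edgeR adjusted p = 0.0175 and 0.0158). EIF2AK4, the kinase GCN2 that senses uncharged tRNA, was called the other way, with log2 fold changes of -0.19 in heat shock and 0.29 in the knockdown. The heat shock call of EIF2AK4 was lost without heated control replicate 2 (edgeR adjusted p = 0.111), without unheated control replicate 2 (0.0546) and with DESeq2 (0.0844). EIF2AK2 overlaps GPATCH11 and EIF2AK1 overlaps AIMP2 in RefSeq, and whether counting used strand is not stated.

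The list of scanning and subunit joining genes held 4 of the 6 largest called heat shock rises among members averaging at least 5 CPM. The list has 9 of the 64 tested members and was drawn up with earlier results of these data known. This count is therefore no test of the role. Of the 9 genes, 4 rose and 2 fell in heat shock, and 3 rose and 3 fell in the knockdown. Calls covered 66.7% of them in both comparisons, beside 43.9% of all tested genes in heat shock and 54.5% in the knockdown. EIF1AD, which encodes a protein with the domain of the scanning factor eIF1A (ENSG00000175376, chromosome 11, 65996545 to 66002157), stood at 74.9 and 81.3 CPM in the knockdown, 86.4 and 87.7 CPM in the heated controls, and 34.9 and 38.2 CPM in the unheated controls. Every heated library lay above the unheated ones, and the rise in control cells was 2.38-fold (log2 fold change 1.25 ± 0.06 SE, edgeR adjusted p = 7.63e-14). Its lower level in the knockdown (log2 fold change -0.16, edgeR adjusted p = 0.0291) was not called with DESeq2 (adjusted p = 0.14), nor without knockdown replicate 1 (edgeR adjusted p = 0.191), heated control replicate 1 (0.064) or heated control replicate 2 (0.0915).

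EIF5, which triggers GTP hydrolysis by eIF2 at the start codon (ENSG00000100664, chromosome 14, 103334237 to 103345025), had 293 and 262 CPM in the knockdown, 364 and 350 CPM in the heated controls, and 192 CPM in both unheated controls. It rose 1.86-fold in heat shock (log2 fold change 0.90 ± 0.05 SE, edgeR adjusted p = 3.58e-13), and the knockdown, again apart from both control groups, held 77.7% of the heated control level (edgeR adjusted p = 1.11e-06). EIF1, which guards start codon choice, had 308 and 291 CPM in the knockdown, 319 and 326 CPM in the heated controls, and 206 and 216 CPM in the unheated controls. Its paralogue EIF1B had 27.6 and 30 CPM in the knockdown, 25.5 and 28.8 CPM in the heated controls, and 18.2 and 19.8 CPM in the unheated controls. Both rose in heat shock, by log2 fold changes of 0.61 (edgeR adjusted p = 1.18e-10) and 0.52 (edgeR adjusted p = 8.98e-05), and neither was called in the knockdown. For EIF1 that value (-0.11, edgeR adjusted p = 0.0512) was called without knockdown replicate 1 (-0.15, edgeR adjusted p = 0.00432).

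EIF5B, the GTPase of subunit joining, had 581 and 540 CPM in the knockdown, 444 and 430 CPM in the heated controls, and 475 and 496 CPM in the unheated controls. The heated controls were lowest, and the knockdown stood 1.28-fold above them (log2 fold change 0.36 ± 0.05 SE, edgeR adjusted p = 5.52e-07). Its heat shock fall (log2 fold change -0.15, edgeR adjusted p = 0.0102) was lost without heated control replicate 2 (edgeR adjusted p = 0.0962), without unheated control replicate 2 (0.136) and with DESeq2 (0.053). EIF1AX, the scanning factor eIF1A itself, was also called lower by heat (log2 fold change -0.21), a call lost without heated control replicate 2 (edgeR adjusted p = 0.0939), unheated control replicate 1 (0.078) or unheated control replicate 2 (0.0677) and with DESeq2 (0.17). Both EIF2A and EIF2D, which can bring tRNA to the ribosome without eIF2, were higher in the knockdown, by log2 fold changes of 0.17 and 0.26, and EIF6, which keeps free large subunits from joining, was lower by 0.16 on that scale. The calls of EIF2A and EIF6 were lost with DESeq2 (adjusted p = 0.0875 and 0.147). Without heated control replicate 2 they stood at edgeR adjusted p = 0.195 and 0.0926, and EIF6 was also lost without knockdown replicate 1 (0.0943) or heated control replicate 1 (0.0779).

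**Figure D3:**
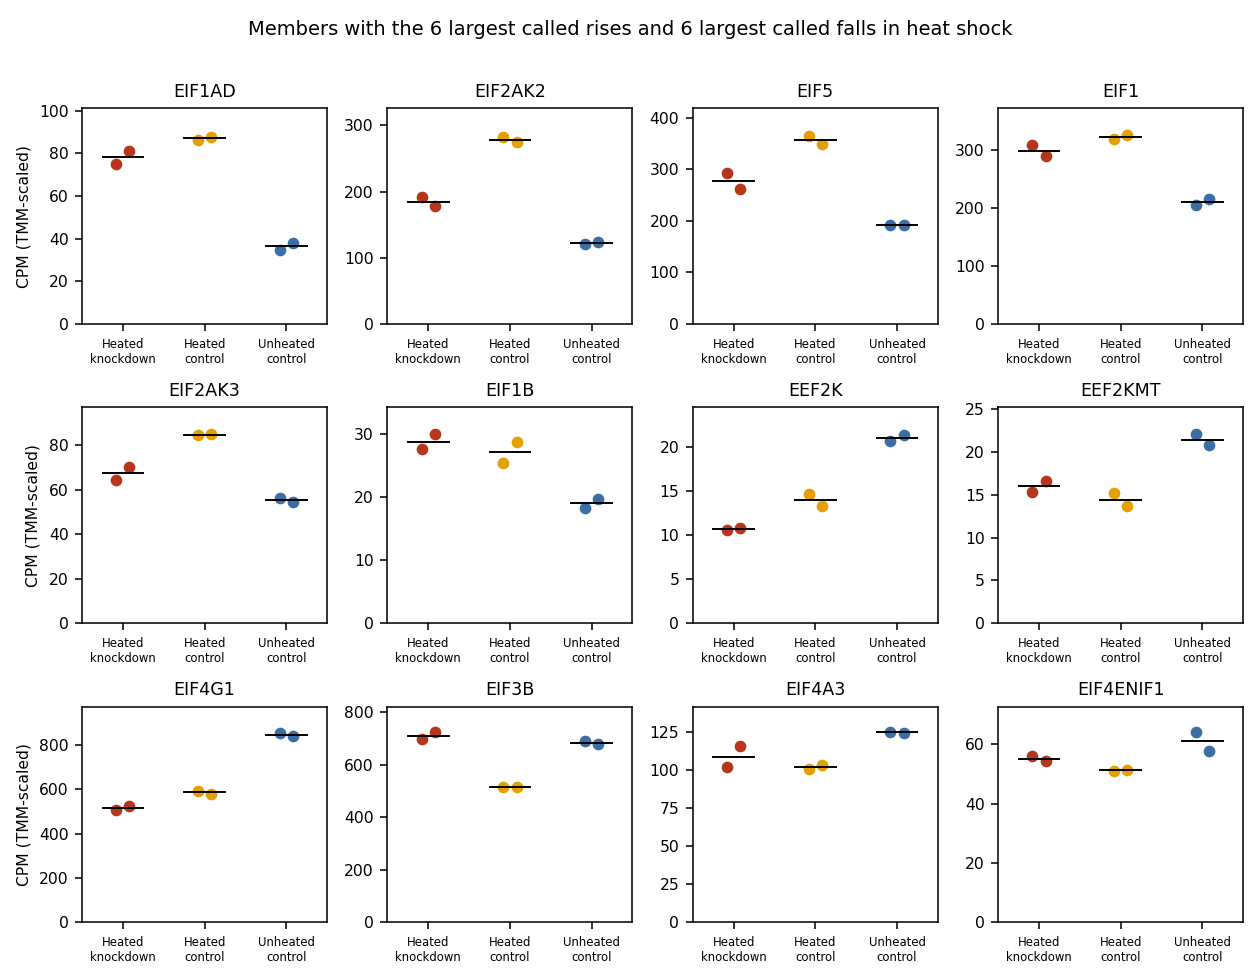
TMM-scaled CPM in each library for the members with the 6 largest called rises and the 6 largest called falls in heat shock, among members averaging at least 5 CPM, with a point per library and a line at the group mean. EIF1AD and EIF2AK2 rose more than 2-fold over the unheated controls, and EIF3B is lower in the heated controls than in the knockdown or the unheated controls.

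The eIF3 complex bridges the small subunit and the cap-binding complex. Of its 14 genes, 7 rose and 2 fell in heat shock, with log2 fold changes of called members between -0.41 and 0.25. In the knockdown 4 rose and 4 fell. By share, 64.3% were called in heat shock and 57.1% in the knockdown, beside 43.9% and 54.5% of all tested genes. EIF3B, a scaffold subunit (ENSG00000106263, chromosome 7, 2354086 to 2380745), had 697 and 723 CPM in the knockdown, 514 and 515 CPM in the heated controls, and 691 and 678 CPM in the unheated controls. The heated controls lay below the other groups. EIF3B fell to 75.2% in heat shock (log2 fold change -0.41 ± 0.04 SE, edgeR adjusted p = 2.97e-08), and the knockdown was 1.38-fold above the heated controls (log2 fold change 0.46 ± 0.04 SE, edgeR adjusted p = 2.54e-09). Against the unheated controls the knockdown was not called for it (log2 fold change 0.05, edgeR adjusted p = 0.287).

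EIF3F, a peripheral subunit, had 216 and 232 CPM in the knockdown, 164 and 177 CPM in the heated controls, and 156 and 141 CPM in the unheated controls. The knockdown libraries were the highest, with a log2 fold change of 0.40 ± 0.05 (SE) over the heated controls (edgeR adjusted p = 1.31e-06). Its rise in heat shock (log2 fold change 0.20, edgeR adjusted p = 0.00474) was lost without heated control replicate 2 (edgeR adjusted p = 0.0939), without unheated control replicate 2 (0.19) and with library size alone (0.0535). EIF3A, the largest scaffold and the most abundant subunit per length at 465 TPM, had 847 and 827 CPM in the knockdown, 918 and 942 CPM in the heated controls, and 982 and 1004 CPM in the unheated controls. It fell by 0.15 on the log2 scale in the knockdown (edgeR adjusted p = 0.00452) and was not called in heat shock (-0.09, edgeR adjusted p = 0.079). Without knockdown replicate 1 or 2 in the fit the heat shock value was called (edgeR adjusted p = 0.0262 and 0.0241).

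Among the other subunits, EIF3J, which is loosely bound to the complex, was 0.25 higher on the log2 scale in heat shock and fell by 0.39 in the knockdown. EIF3M also fell in the knockdown, by 0.34, whereas EIF3D, which can bind caps itself, rose by 0.24 and EIF3L by 0.15. In heat shock EIF3E, EIF3G, EIF3H, EIF3I and EIF3L rose with log2 fold changes from 0.16 to 0.22. The small heat shock fall of EIF3D (log2 fold change -0.12, edgeR adjusted p = 0.0255) was lost without any 1 of the 4 control libraries, with edgeR adjusted p from 0.0878 to 0.137, and with DESeq2 (0.116). EIF3L lost its heat shock rise without unheated control replicate 1 (edgeR adjusted p = 0.097) and with library size alone (0.0941). The fall of EIF3H in the knockdown (log2 fold change -0.12) was lost under 6 of 13 alternatives, with edgeR adjusted p up to 0.111 without knockdown replicate 1.

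**Figure D4:**
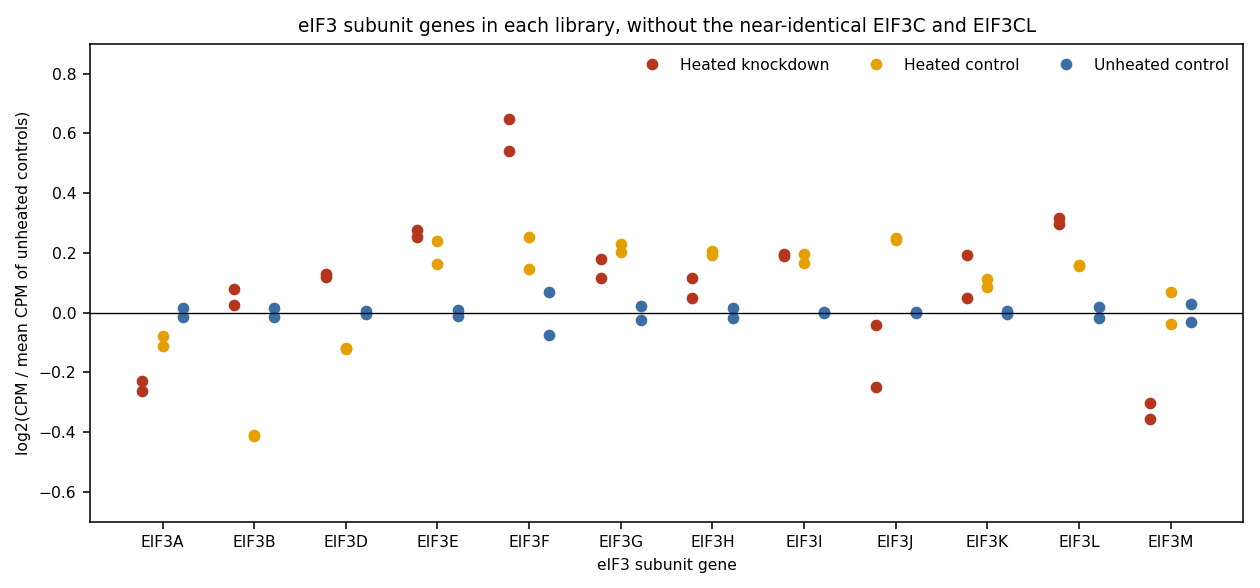
Each library's CPM of 12 eIF3 subunit genes relative to the mean of the unheated controls, on a log2 scale, in the order knockdown, heated control and unheated control. EIF3B is lower by 0.41 in the heated controls than in the unheated ones, EIF3F is highest in the knockdown, and EIF3J and EIF3M are lowest there.

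The eIF4F complex binds the cap and unwinds the leader of the messenger RNA. Its scaffold EIF4G1 fell in heat shock and its paralogue EIF4G3 fell in the knockdown, while the helicase gene EIF4A2 rose in both. Of 11 tested genes of this list, 2 rose and 3 fell in heat shock, and 2 rose and 4 fell in the knockdown. These calls made up 45.5% and 54.5% of the list, near the 43.9% and 54.5% of all tested genes. EIF4G1 (ENSG00000114867, chromosome 3, 184314606 to 184335358) had 508 and 525 CPM in the knockdown, 594 and 578 CPM in the heated controls, and 851 and 842 CPM in the unheated controls. The unheated libraries were far above the heated ones, and heat shock left 69.2% of the level (log2 fold change -0.53 ± 0.04 SE, edgeR adjusted p = 3.49e-10). The knockdown held 88.2% of the heated control level (log2 fold change -0.18 ± 0.04 SE, edgeR adjusted p = 0.00105).

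EIF4G3, the paralogous scaffold (ENSG00000075151, chromosome 1, 20806292 to 21176897), had 49.9 and 48.8 CPM in the knockdown, 89.8 and 88.4 CPM in the heated controls, and 89.9 and 85.4 CPM in the unheated controls. The control groups overlapped, and the knockdown held 55.4% of the heated control level, the largest fall of any member in that comparison (log2 fold change -0.85 ± 0.06 SE, edgeR adjusted p = 1.33e-11). The ratio of EIF4G1 to EIF4G3 in TPM was 14.2 in the knockdown, 8.93 in the heated controls and 13.1 in the unheated controls. EIF4G2, a relative that lacks the eIF4E-binding site and is the most abundant of the list per length at 484 TPM, had 1003 and 1013 CPM in the knockdown, 1325 and 1255 CPM in the heated controls, and 1143 and 1132 CPM in the unheated controls. It was highest in the heated controls, with log2 fold changes of 0.18 in heat shock (edgeR adjusted p = 0.00152) and -0.36 in the knockdown (edgeR adjusted p = 2.65e-07).

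EIF4A2, one of the paralogous helicases (ENSG00000156976, chromosome 3, 186783577 to 186789897), had 498 and 496 CPM in the knockdown, 362 and 357 CPM in the heated controls, and 284 and 296 CPM in the unheated controls. All 3 groups stood apart. The log2 fold changes were 0.31 ± 0.04 (SE) in heat shock (edgeR adjusted p = 2.77e-06) and 0.47 ± 0.04 in the knockdown (edgeR adjusted p = 2.23e-09). EIF4B, which stimulates the helicase, had 466 and 472 CPM in the knockdown, 663 and 671 CPM in the heated controls, and 719 and 733 CPM in the unheated controls. It fell to 70.3% of the heated controls in the knockdown (log2 fold change -0.51 ± 0.04 SE, edgeR adjusted p = 4.41e-10). Its heat shock call (-0.12, edgeR adjusted p = 0.0206) was lost with DESeq2 (0.0726) and without any 1 of the 4 control libraries, with edgeR adjusted p from 0.0683 to 0.156.

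EIF4A3, the helicase of the exon junction complex, had 102 and 116 CPM in the knockdown, 101 and 103 CPM in the heated controls, and 126 and 125 CPM in the unheated controls. It fell in heat shock (log2 fold change -0.29 ± 0.06 SE, edgeR adjusted p = 0.000149) and was not called in the knockdown, where the libraries overlapped those of the heated controls (0.09, edgeR adjusted p = 0.177). Without knockdown replicate 1 that second value was 0.18 and was called (edgeR adjusted p = 0.00729). The cap-binding gene EIF4E was between 72.1 and 81.4 CPM in all 6 libraries and was not called in any comparison, though its knockdown value (log2 fold change 0.11) was called without knockdown replicate 2 (0.16, edgeR adjusted p = 0.0363). Its relative EIF4E2, which binds caps without recruiting ribosomes, was called higher in the knockdown (log2 fold change 0.19, edgeR adjusted p = 0.00367), a call lost without heated control replicate 2 (edgeR adjusted p = 0.119). EIF4E3 was between 3.54 and 5.42 CPM and was not called.

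Proteins that hold eIF4E gave 3 tested genes, of which 0 rose and 2 fell in heat shock and 0 rose and 1 fell in the knockdown. At an unadjusted p under 0.05 the numbers of rises were 0 and 1, and with DESeq2 they were 0 and 0. Over both directions edgeR called 66.7% of the 3 in heat shock and 33.3% in the knockdown, beside 43.9% and 54.5% of all tested genes. EIF4EBP2, an inhibitor that mTOR switches off (ENSG00000148730, chromosome 10, 70404145 to 70428618), had 38.3 and 39.9 CPM in the knockdown, 66.7 and 63.9 CPM in the heated controls, and 72.5 and 75.4 CPM in the unheated controls. The knockdown libraries were far below both control groups, at 59.9% of the heated controls (log2 fold change -0.74 ± 0.06 SE, edgeR adjusted p = 9.03e-10). The smaller heat shock fall (-0.18, edgeR adjusted p = 0.0152) was lost with DESeq2 (0.172), without heated control replicate 2 (0.131) and without unheated control replicate 2 (0.128).

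Its paralogue EIF4EBP1, per length the most abundant of the 3 at 490 TPM, had 124 and 141 CPM in the knockdown, 111 and 127 CPM in the heated controls, and 112 and 107 CPM in the unheated controls. The groups overlapped in heat shock and in the knockdown, and neither value was called (log2 fold changes 0.12 and 0.16, edgeR adjusted p = 0.163 and 0.063). Against the unheated controls the knockdown was called higher, without overlap (log2 fold change 0.28, edgeR adjusted p = 0.00172). The heat shock value was called without either knockdown replicate (edgeR adjusted p = 0.0476 and 0.0378) and without heated control replicate 1 (0.0164). The knockdown value was called without knockdown replicate 1 (0.24, edgeR adjusted p = 0.000679) and without heated control replicate 2 (0.25, edgeR adjusted p = 0.00442). In TPM, EIF4EBP1 was 28.9 times EIF4EBP2 in the knockdown, 15.5 times in the heated controls and 12.6 times in the unheated controls. EIF4ENIF1, which carries eIF4E into the nucleus, had 56.1 and 54.3 CPM in the knockdown, 51.1 and 51.5 CPM in the heated controls, and 64.3 and 57.8 CPM in the unheated controls. It fell in heat shock (log2 fold change -0.25, edgeR adjusted p = 0.00301), a call lost without unheated control replicate 1 (0.112) and with DESeq2 (0.053).

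**Figure D5:**
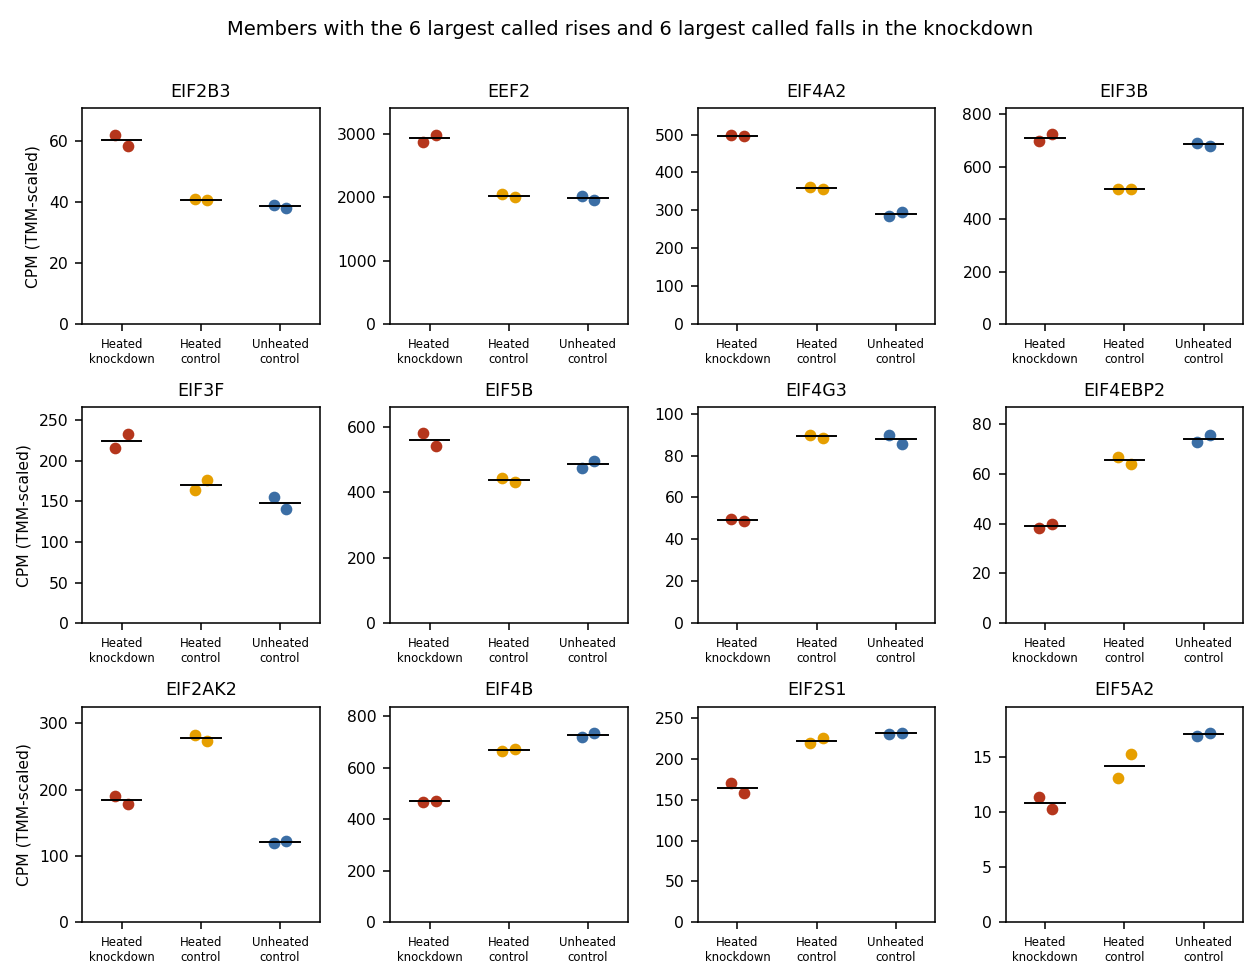
TMM-scaled CPM in each library for the members with the 6 largest called rises and the 6 largest called falls in the knockdown relative to the heated controls, among members averaging at least 5 CPM, with a point per library and a line at the group mean. EEF2 and EIF2B3 stand above both control groups in the knockdown, and EIF4G3 and EIF4EBP2 stand below both.

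Of 8 tested elongation factors, heat shock raised 2 and lowered 1, and the knockdown raised 4 and lowered 2. Thus 37.5% were called in heat shock and 75% in the knockdown, beside 43.9% and 54.5% of all tested genes. EEF2, which moves the ribosome one codon on (ENSG00000167658, chromosome 19, 3976056 to 3985463), had 2878 and 2985 CPM in the knockdown, 2044 and 1998 CPM in the heated controls, and 2023 and 1955 CPM in the unheated controls. The control groups overlapped and the knockdown was 1.45-fold above the heated controls (log2 fold change 0.54 ± 0.04 SE, edgeR adjusted p = 3.71e-10). EEF1A1, the most abundant member (ENSG00000156508, chromosome 6, 73515750 to 73521032), had 7153 and 7146 CPM in the knockdown, 5352 and 6631 CPM in the heated controls, and 5402 and 5287 CPM in the unheated controls. Heated control replicate 1 lay among the unheated libraries, whereas replicate 2 lay between them and the knockdown.

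For EEF1A1 the knockdown value (log2 fold change 0.26 ± 0.09 SE, edgeR adjusted p = 0.0345) was lost with DESeq2 (adjusted p = 0.102). It was also lost without knockdown replicate 1 (edgeR adjusted p = 0.376), knockdown replicate 2 (0.375) or heated control replicate 1 (log2 fold change 0.11, edgeR adjusted p = 0.132). Its heat shock value (0.16, edgeR adjusted p = 0.163) was called without heated control replicate 1 (0.31, edgeR adjusted p = 4.7e-05). The paralogue EEF1A2 was called higher in both comparisons (log2 fold changes 0.11 and 0.14), with both calls lost in some fits that left out a library. Its heat shock value was lost without heated control replicate 2 (edgeR adjusted p = 0.326) or either unheated replicate (0.201 and 0.221) and with DESeq2 (0.0534) or library size alone (0.451), and its knockdown value without heated control replicate 1 (0.148). EEF1B2 and EEF1D encode subunits that recharge eEF1A. EEF1B2 was called higher in heat shock (log2 fold change 0.13, edgeR adjusted p = 0.0232), a call lost with library size alone (0.288), without heated control replicate 1 (0.119) or 2 (0.061), and without unheated control replicate 2 (0.342). It fell by 0.20 on the log2 scale in the knockdown (edgeR adjusted p = 0.000678), whereas EEF1D was called higher (0.13, edgeR adjusted p = 0.0167), a call lost without heated control replicate 1 (0.152) or unheated control replicate 1 (0.0518).

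EIF5A, which helps the ribosome through difficult stretches and carries the amino acid hypusine, had 317 and 296 CPM in the knockdown, 296 and 295 CPM in the heated controls, and 322 and 323 CPM in the unheated controls. Its heat shock fall (log2 fold change -0.12, edgeR adjusted p = 0.028) was lost with DESeq2 (0.15) and without any 1 of the 4 control libraries, with edgeR adjusted p from 0.0861 to 0.126. EIF5A2, its scarcer paralogue, had 11.3 and 10.2 CPM in the knockdown, 13.1 and 15.2 CPM in the heated controls, and 16.9 and 17.1 CPM in the unheated controls. The 3 groups did not overlap. The knockdown value (log2 fold change -0.39 ± 0.12 SE, edgeR adjusted p = 0.00935) was lost with DESeq2 (0.069), without knockdown replicate 2 (0.0667) and without heated control replicate 2 (0.132), and the heat shock value was not called (-0.26, edgeR adjusted p = 0.0635). The heat shock value was called with library size alone (edgeR adjusted p = 0.0184) and without knockdown replicate 1 (0.0426), knockdown replicate 2 (0.0424) or heated control replicate 2 (log2 fold change -0.38, edgeR adjusted p = 0.0412). In TPM EIF5A was 58.7 times EIF5A2 in the knockdown, 43.2 times in the heated controls and 39.1 times in the unheated controls.

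The list of elongation factor regulators gave 6 tested members, among them EEF1E1. In heat shock 0 were higher and 2 lower, and in the knockdown 1 was higher and 1 lower. There were also 0 heat shock rises at an unadjusted p under 0.05 and by DESeq2. Called by edgeR in either direction were 33.3% of the 6 in both comparisons, beside 43.9% and 54.5% of all tested genes. EEF2K, the kinase that halts eEF2 (ENSG00000103319, chromosome 16, 22206278 to 22288738), had 10.6 and 10.8 CPM in the knockdown, 14.6 and 13.3 CPM in the heated controls, and 20.7 and 21.3 CPM in the unheated controls. No groups overlapped. Heat shock left 66.3% of it (log2 fold change -0.59 ± 0.11 SE, edgeR adjusted p = 6.18e-05), and the knockdown stood at 50.8% of the unheated controls (log2 fold change -0.98 ± 0.11 SE, edgeR adjusted p = 3.67e-08). The step between the heated groups (-0.38, edgeR adjusted p = 0.00856) was lost without heated control replicate 1 (0.0851) and with DESeq2 (0.0641).

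EEF2KMT, which methylates eEF2, had 15.3 and 16.6 CPM in the knockdown, 15.2 and 13.7 CPM in the heated controls, and 22.1 and 20.8 CPM in the unheated controls. It fell to 67.2% in heat shock (log2 fold change -0.57 ± 0.10 SE, edgeR adjusted p = 8.43e-05) and was not called in the knockdown (0.15, edgeR adjusted p = 0.262). EEF1AKMT4, a methyltransferase of eEF1A, had 2.46 and 3.76 CPM in the knockdown, 1.62 and 1.65 CPM in the heated controls, and 2.46 and 1.93 CPM in the unheated controls. Its rise in the knockdown (log2 fold change 0.93, edgeR adjusted p = 0.00883) rested on few counts and was lost without knockdown replicate 2 (0.59, edgeR adjusted p = 0.176) and with DESeq2 (0.0809).

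Several members could not be measured reliably from this table. EEF1G, a subunit of the eEF1A exchange complex, was listed at 0 in all 6 libraries. An unnamed gene with a listed exon at the 3′ end of EEF1G had 7 to 29 counts per library. EIF4A1, the other cap helicase, had only 38 to 70 counts per library, and it lies inside the RefSeq read-through gene SENP3-EIF4A1, which had 2 to 10. The near-identical EIF3C and EIF3CL varied within groups, with 542 and 94 counts of EIF3CL in the 2 unheated libraries. EIF3C had 326 and 193 counts in the heated controls, and without heated control replicate 2 its heat shock value (log2 fold change 0.80, edgeR adjusted p = 7.77e-06) and its knockdown value (-0.74, edgeR adjusted p = 1.91e-05) were called. How reads that fit several places were counted is not stated. The other untested members were EIF4E1B, EIF4EBP3, EEF1AKMT1 and the read-through genes EEF1AKMT4-ECE2 and EEF1E1-BLOC1S5, with at most 4 counts in any library. The family's 155 pseudogenes together held at most 0.0388% of a library's counts.

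Of the 9 members that textbook accounts list with a terminal oligopyrimidine tract, 8 were tested, with EEF1G as the exception. Heat shock raised 4 and lowered 1 of them, and the knockdown raised 4 and lowered 3. Their median log2 fold change was 0.15 in heat shock and 0.10 in the knockdown, beside -0.03 and -0.00 over all genes. The shares over all genes were 20.6% higher and 23.3% lower for heat shock, with 27.4% higher and 27.2% lower for the knockdown. The heat shock calls of EEF1B2, EIF3F and EIF4B, and the knockdown calls of EEF1A1, EEF1D and EIF3H, were each lost in some fits that left out a library. EEF2 and EIF4B, both with the tract, went opposite ways in the knockdown. Of the 13 members with the tract in their promoter windows, heat shock raised 3 and lowered 2, with a median log2 fold change of 0.03. The knockdown raised 7 and lowered 3 of those 13, with a median of 0.17.

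Of 32 other genes of translation control, 10 were higher and 8 lower in heat shock, and 12 were higher and 10 lower in the knockdown. In heat shock 56.25% of them were called, beside 43.9% of all tested genes, and in the knockdown 68.75%, beside 54.5%. PPP1R15A, which directs the phosphatase that reverses eIF2 alpha phosphorylation, had 299 and 313 CPM in the knockdown, 111 and 116 CPM in the heated controls, and 41.2 and 44.4 CPM in the unheated controls. It stood apart in all 3 groups and rose in both steps, by log2 fold changes of 1.40 ± 0.06 (SE) in heat shock (edgeR adjusted p = 1.03e-15) and 1.43 ± 0.05 in the knockdown (edgeR adjusted p = 7.93e-17). MKNK2, a kinase of eIF4E, rose by 1.27 in heat shock and by a further 0.45 in the knockdown on the log2 scale. IMPACT, an inhibitor of GCN2, had 5.63 and 6.26 CPM in the knockdown, 18.1 and 16.4 CPM in the heated controls, and 19.8 and 20.4 CPM in the unheated controls, a log2 fold change of -1.53 ± 0.13 (SE) in the knockdown (edgeR adjusted p = 5.48e-10). MTOR, the kinase that switches off the eIF4E inhibitors, fell by 0.76 in the knockdown (edgeR adjusted p = 7.06e-11), and its partner RPTOR fell by 0.81 in heat shock (edgeR adjusted p = 1.1e-10).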

How the data were processed

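Total RNA of U2OS cells was extracted with TRIzol and made into libraries with the VAHTS Universal V8 kit for the DNBSEQ-T7, per the labels' protocols. The authors deposited whole-number read counts per gene for the 6 libraries, with a gene length per the file headers. The submitters' processing notes name the build GRCh38 and, without roles, HISAT2 2.2.1 and featureCounts 2.0.2 beside Trim Galore 0.6.7, FastQC 0.11.8, SAMtools 1.17, MACS2, R 4.4.0 and DESeq2 1.36.0. Which annotation was counted, with which strand setting, and what became of reads that fit several places is not given in the sources used here. Samples of methylated RNA immunoprecipitation, 4 in number, were not analysed here. Symbols were matched to 62666 of 63187 identifiers, and positions and sequences are those of RefSeq on GRCh38.p14, matched by symbol.

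All 6 libraries entered a single edgeR 4.0.16 quasi-likelihood fit in R 4.3.3 (robust, TMM scaling, filterByExpr with a minimum count of 10, 3 residual degrees of freedom). P-values were Benjamini-Hochberg adjusted over all 17290 tested genes, with 0.05 as the threshold, and only the members are printed. The common biological coefficient of variation was 3.69%. The labels do not say whether replicate libraries are separate cultures. P-values therefore reflect the spread of these samples only, and it may be technical. Replicates differed beyond sampling noise (chi-square over genes, per gene, 3.55 in the knockdown, 2.69 in heated and 1.54 in unheated controls), so none was counted as a copy. The script was tested on simulated data. Values in every library are given for 28 members, namely in each comparison the 6 largest called rises and falls among members averaging at least 5 CPM, plus the member with the highest mean TPM of each role. Others so described, such as EIF2B5, EIF5A and EEF1AKMT4, and the pathway genes given by library, were chosen after their values were seen. The members and lists were chosen with earlier results of these data known. Alternatives were the scaling, the filter, DESeq2 1.42.0, the groups in the fit, robust estimation, the replicate block and leaving out each library. The summed level of 1 further marker list is not reported here.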

Additional observations from a re-analysis of the deposited data

How the results depend on the processing

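Across 13 alternatives, 20 of 32 heat shock calls, 27 of 40 knockdown calls and 34 of 44 calls of the knockdown against the unheated controls held under every one, and no called member changed direction. A further 12, 6 and 7 uncalled members gained a call somewhere. The number of members lowered by heat shock moved most. It was 13 in the main fit, 20 with library size alone and 5 with DESeq2's Wald test, and it ran from 6 to 16 when 1 library was left out. The number raised by heat shock was 19 and ran from 15 to 22 over all alternatives. In the knockdown the numbers ran from 15 to 20 for rises and from 16 to 22 for falls, and against the unheated controls from 21 to 26 and from 15 to 21. Library size alone moved the median log2 fold change of all genes in heat shock to -0.10, against -0.03 in the main fit. The cause of these shifts was not tested. Leaving out 1 library leaves its group with a single one, which is then assumed to vary like the other groups. Deviations from the group means correlated at 0.014, -0.02 and -0.01 between same-numbered libraries, so no deviation shared by replicate number was seen. These values cannot tell whether same-numbered libraries were made together. With the replicate block the counts were 19 higher and 13 lower in heat shock, 20 and 21 in the knockdown, and 26 and 18 against the unheated controls. By CPM in place of TPM the highest member was the same in 7 of 8 roles, with EIF5B above EIF1 among scanning and joining factors. With 2 libraries a group, changes below about the spread between libraries could not be called, and counts under about 100 per library, as for EIF4A1 and EEF1AKMT4, gave wide errors.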
